A study of Mus musculus with 8 samples.

Results

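The interferon-inducible gene families were followed in kidney proximal tubules after cisplatin, a platinum drug that injures these cells. Members were the rows of the deposited gene table whose symbol belongs to the Ifi, Ifit, Ifitm, Gbp, Oas, Irf, Isg, Irgm or Iigp, Mx, Trim30 or Phf11 families, with a few single genes such as Rsad2, Usp18 and Stat2. This gave 64 of 21874 gene rows, together with 1 of 2163 circRNAs, whose back-splice joins a pair of Ifi genes on chromosome 1. The rule matches names and uses no measured value, but the set of families was chosen with earlier results of these data known.

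Proximal tubule cells had been isolated from the renal cortex of male C57BL/6 mice, which received cisplatin at 30 mg/kg into the peritoneal cavity. There were 4 groups of 2 libraries, called a and b, at 0, 24, 48 and 72 h after injection, and no dose is listed for the 0 h group. The duplicates are described as biological, but separate animals are not stated, so the p-values speak only for the spread between these libraries. Ribosomal RNA was depleted before sequencing. Gene values were FPKM, fragments scaled for the length of the row and for library size, which summed to between 314173 and 452114 over a library.

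Interferons are secreted proteins that cells release after their receptors for foreign or displaced nucleic acid are engaged. They bind surface receptors, whose kinases phosphorylate transcription factors. Type I interferon leads to a complex that holds Stat2 and Irf9 on a promoter sequence called the interferon-stimulated response element, and interferon gamma acts through another, the gamma-activated sequence. The induced genes encode RNA-binding proteins such as Ifit1, the RNA-degradation system started by the Oas enzymes, GTPases of the Gbp and Irgm families, membrane proteins of the Ifitm family, DNA sensors of the Ifi200 family, and feedback factors such as Irf7 and Usp18. In kidney, damaged tubules can release mitochondrial and nuclear DNA, and both tubule cells and immune cells can express these genes.

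Proximal promoters of the members can be read for these elements, and a few are shown because their genes carry the main patterns. RefSeq windows (GRCm38.p6, the assembly also called mm10) ran from 250 bases before to 50 bases after the start of transcription and were 300 bases long. They were present for 50 of the 64 members. Capitals mark matches on either strand to GAAA, any 2 bases and GAAA again, the core of the interferon-stimulated response element, or to TTCNNNGAA, the core of the gamma-activated sequence. Ifit1, Isg15, Oas1a and Ifitm3 were among the members that rose, Irgm2 was the member that was lower than at 0 h throughout, and Irf1 has a match of the gamma-activated type only.
Ifit1 (chr19:34640639-34640938, plus strand): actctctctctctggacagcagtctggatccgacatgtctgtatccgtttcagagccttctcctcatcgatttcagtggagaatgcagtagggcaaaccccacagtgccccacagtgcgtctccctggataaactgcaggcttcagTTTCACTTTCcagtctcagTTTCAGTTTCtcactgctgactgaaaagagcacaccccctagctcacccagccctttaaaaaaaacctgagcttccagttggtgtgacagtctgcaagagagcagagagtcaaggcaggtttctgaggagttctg
Isg15 (chr4:156200769-156201068, minus strand): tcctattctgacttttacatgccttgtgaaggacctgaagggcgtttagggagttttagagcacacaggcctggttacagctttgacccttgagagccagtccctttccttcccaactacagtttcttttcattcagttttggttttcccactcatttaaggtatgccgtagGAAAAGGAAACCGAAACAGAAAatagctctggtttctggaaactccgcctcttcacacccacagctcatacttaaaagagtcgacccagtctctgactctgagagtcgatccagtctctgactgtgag
Oas1a (chr5:120907476-120907775, minus strand): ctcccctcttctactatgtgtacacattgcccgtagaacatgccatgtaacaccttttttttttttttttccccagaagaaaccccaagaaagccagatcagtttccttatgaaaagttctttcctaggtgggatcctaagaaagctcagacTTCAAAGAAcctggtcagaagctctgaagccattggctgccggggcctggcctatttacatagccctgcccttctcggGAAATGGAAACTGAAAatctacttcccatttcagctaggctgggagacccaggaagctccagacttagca
Ifitm3 (chr7:141010695-141010994, minus strand): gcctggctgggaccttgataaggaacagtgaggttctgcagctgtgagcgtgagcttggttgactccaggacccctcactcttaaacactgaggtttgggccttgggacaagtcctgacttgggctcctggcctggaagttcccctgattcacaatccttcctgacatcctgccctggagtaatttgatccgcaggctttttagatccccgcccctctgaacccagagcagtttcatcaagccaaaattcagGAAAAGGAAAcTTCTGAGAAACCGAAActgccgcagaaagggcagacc
Irgm2 (chr11:58214727-58215026, plus strand): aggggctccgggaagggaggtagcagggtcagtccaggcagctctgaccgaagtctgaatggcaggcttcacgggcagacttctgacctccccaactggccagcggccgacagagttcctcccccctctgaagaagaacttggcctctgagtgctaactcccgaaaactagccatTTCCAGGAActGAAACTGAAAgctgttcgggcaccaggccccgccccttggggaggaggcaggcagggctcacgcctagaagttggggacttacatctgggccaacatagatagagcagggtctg
Irf1 (chr11:53769764-53770063, plus strand): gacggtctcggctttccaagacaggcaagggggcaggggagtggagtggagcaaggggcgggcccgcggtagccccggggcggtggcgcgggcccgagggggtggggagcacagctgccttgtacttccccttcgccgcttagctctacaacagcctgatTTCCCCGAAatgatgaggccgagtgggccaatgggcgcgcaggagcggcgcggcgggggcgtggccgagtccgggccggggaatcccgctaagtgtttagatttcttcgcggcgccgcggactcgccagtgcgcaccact

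The response-element core was present in the window of 21 of the 50 members (42%), against 3.99% of the 27025 genes with a window. TTCNNNGAA was present in 13 members (26%), against 9.55% of all genes, and both were present in 5 members, against 0.54% of all genes. The 5 members with both were Gbp7, Oas1a, Ifitm3, Irf2 and Irgm2, and a match of 1 kind overlapped a match of the other in 1 of them, Ifitm3. The pair of response-element matches in Ifit1 began at positions -104 and -85 from the start of transcription, and the 3 overlapping matches in Isg15 at -78, -72 and -66. The match in Irgm2 began at -64. Among the windows of the 33 members higher than at 0 h at all 3 later times, 27 in number, 13 held the response-element core (48.1%), as did 3 of the 9 windows of the other tested members (33.3%). Oasl1 and Irf7, whose changes were among the largest, held neither motif in this window. These are letter matches and not measured binding.

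The Ifi200 genes, which encode proteins with a DNA-binding domain and mostly a pyrin domain, lie in a cluster on chromosome 1. Their windows for 5 genes held the response-element core, and the 40 bases around it are shown because several are close copies of each other.
Ifi213 (chr1:173599321-173599360, minus strand): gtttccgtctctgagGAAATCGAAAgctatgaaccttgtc
Ifi208 (chr1:173673592-173673631, plus strand): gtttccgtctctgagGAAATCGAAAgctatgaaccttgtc
Ifi206 (chr1:173491334-173491373, minus strand): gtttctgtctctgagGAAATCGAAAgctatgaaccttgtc
Ifi214 (chr1:173536012-173536051, minus strand): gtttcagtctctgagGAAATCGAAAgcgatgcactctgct
Ifi211 (chr1:173913059-173913098, minus strand): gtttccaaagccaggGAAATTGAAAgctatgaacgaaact

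Over these 40 positions Ifi208 had 0 and Ifi206 had 1 position that differed from Ifi213, whereas Ifi214 had 7 and Ifi211 had 14. Their transcribed sequences were not compared. The Ifi200 genes are paralogs, whose reads may be split between rows, so the values of single genes are uncertain. The Ifi211 row also spans Ifi207, Ifi204, Mndal, Ifi203 and Ifi205, which have no row of their own.

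Of the 64 rows, 48 reached 1 FPKM in at least 2 of the 8 libraries and were tested. The 16 others stayed at or below 1.03 FPKM in every library: Ifi202b, Ifi206, Ifi208, Ifi214, Ifitm7, Irf4, Irf2bp1, Oas1d, Oas1e, Oas1f, Oas1h, Oas3, Phf11a, Trim30b, Trim30c and Ifi44l. Ifi44l was listed at 0 in all 8 libraries. Among the tested rows, 10 reached 1 FPKM in no 0 h library (Ifi209, Ifi213, Ifitm6, Irf2bpl, Isg15, Mx1, Mx2, Oas1c, Ifi27l2b and Ifi35), so they could pass the filter only by being higher later. Counts are therefore also given for the 37 rows that averaged at least 1 FPKM at 0 h. The single fold changes and p-values given below for any of these 10 rows carry the same limit. In all, 14 of the 64 rows also cover another gene and their values cannot be divided between genes. Those with their own account here are Ifit2 (with Ifit3 and Ifit3b), Oas1a (with Oas1g), Irgm2 (with Igtp), Iigp1 (with genes that include Gm4951), Gbp9 (with Gbp4, Gbp6, Gbp8 and Gbp10), Trim30a (with genes that include Trim5, Trim12a, Trim12c, Trim34b and Trim30d), Phf11d (with genes that include Phf11b, Phf11c and Setdb2, which is not of the family), Irf9 (with Rnf31), Ifi30 (with Mpv17l2), Ifi27 and Ifi27l2a (with each other) and Ifi211. A further 7 rows span no other gene but run more than 2000 bases past the RefSeq span of their own. They are Gbp3, Irgm1, Ifitm5, Ifitm6, Irf2bp2, Isg20l2 and Oasl2, and what the added stretches hold was not tested. Rows that span no other gene can still overlap the row of another. Among these were Ifit1 (with Slc16a12), Oasl1 and Oasl2 (with Sppl3), Irf7 (with Phrf1), Irf8 (with Usp10), Stat2 (with Ctdsp2) and Isg15 (with Agrn). No source used here says whether counting used strand, and the effect of these overlaps was not tested.

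Most tested members rose by 24 h and stayed above 0 h. At 24 h, 35 of the 48 were higher than at 0 h and 7 were lower (limma, Benjamini-Hochberg adjusted p under 0.05). Of all 10757 rows tested, 25.8% were higher and 40.0% were lower at that time. At 48 h, 36 were higher and 5 lower, against 28.5% and 42.1% of all rows. At 72 h, 41 were higher and 1 was lower, against 37.6% and 32.4% of all rows. Among the 37 rows that averaged at least 1 FPKM at 0 h, 28 were higher and 7 lower at 24 h, 26 higher and 5 lower at 48 h, and 30 higher and 1 lower at 72 h. When each of the 8 libraries was left out in turn, 32 of the 42 calls at 24 h, 37 of the 41 at 48 h and 38 of the 42 at 72 h held every time.

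The median log2 fold change against 0 h, in the order 24, 48 and 72 h, was 0.54, 0.68 and 0.91 for the tested members and -0.12, -0.13 and 0.07 for all tested rows. With libraries scaled to the same median or quantile normalised, 32 of the 35 members higher at 24 h, 33 of the 36 at 48 h and 37 of the 41 at 72 h kept their call under both, as did 5 of the 7 lower at 24 h, 3 of the 5 at 48 h and the 1 at 72 h. The group with the highest mean was 72 h for 30 of the 48 rows, 48 h for 7, 24 h for 7 and 0 h for 4. The same count was not made over all tested rows, of which 37.2% were higher and 11.3% lower at 72 h than at 48 h. Scaling to the same median took the members' median change between those times from 0.28 to 0.08, so the number with a peak at 72 h depends on the scaling. The 33 members higher at every later time came from all 14 families. They include Ifi209, Ifi213, Ifitm6, Irf2bpl, Isg15, Mx2 and Ifi35, which could pass the filter only by being higher later. The Irf2bp family counted only through Irf2bpl. Its 24 and 48 h calls were lost with quantile normalisation (0.22 and 0.14) and without either 0 h library. Irgm2 was lower at every later time, and Gbp9 passed the test at none.

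**Figure D1:**
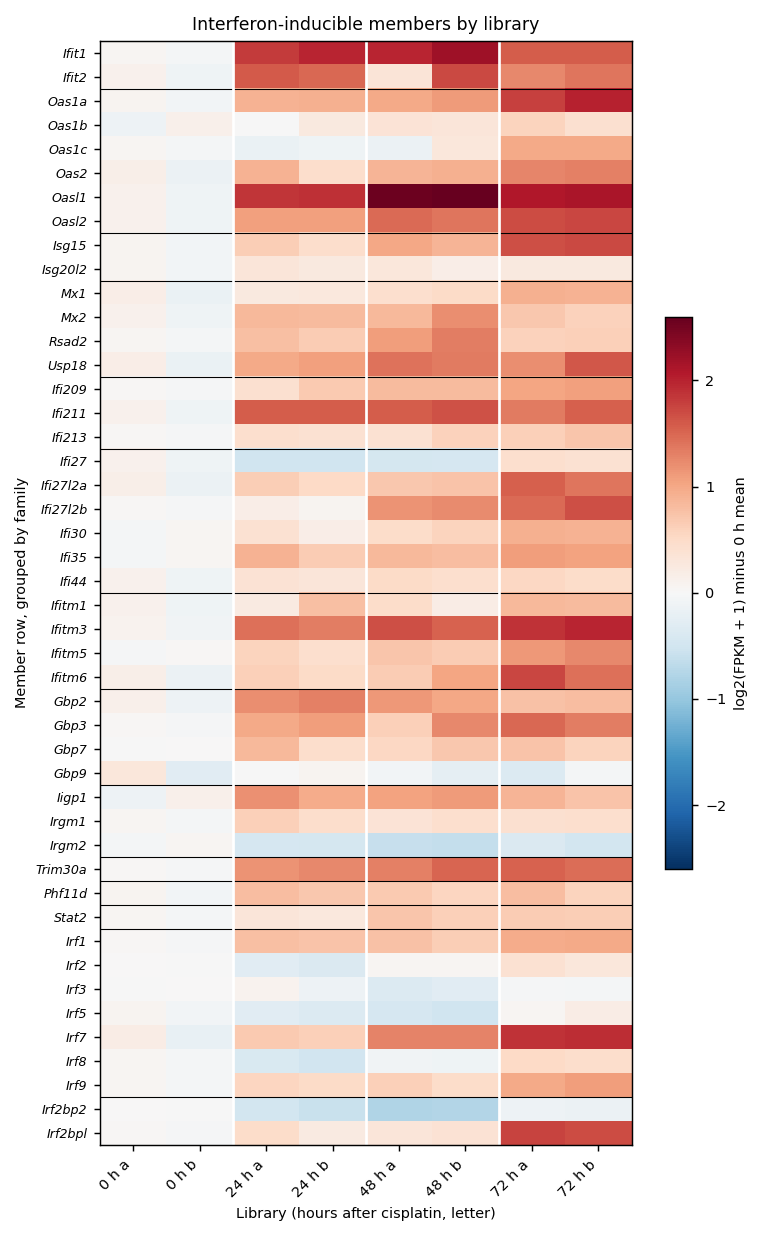
Heat map of 46 of the 48 tested member rows in each of the 8 libraries, as log2(FPKM + 1) minus the mean of the 0 h libraries, with families separated by black lines. Most rows are red from 24 h on, Irgm2 is blue at all 3 later times, and several Irf rows are blue at 24 h and pale or red at 72 h.

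Markers of the tubule and of other cell types differed over the same times. Markers of proximal tubule were lower in 11 of 12 rows at 24 h and in 12 of 12 at 48 and 72 h. Their summed level, over the 10 rows that span no other gene, was 5543 to 6029 FPKM at 0 h, 2245 to 2556 after 24 h, 1392 to 1446 after 48 h and 752 to 759 after 72 h. Neutrophil markers were higher in 6, 7 and 7 of 7 tested rows at 24, 48 and 72 h. None of these 7 rows reached 1 FPKM in a 0 h library, so they could pass the filter only by being higher later. The sum of neutrophil markers over 10 rows was 1.05 to 1.24 FPKM at 0 h, where Ly6g and Camp were listed at 0, 27.5 to 29.1 after 24 h, 27.1 to 32.8 after 48 h and 76.2 to 78.5 after 72 h. Macrophage and monocyte markers were higher in 6, 6 and 11 and lower in 2, 2 and 0 of 12 rows, with a sum over 10 rows of 36.9 to 44.0 FPKM at 0 h, 45.4 to 54.6 after 24 h, 53.8 to 55.6 after 48 h and 157 to 162 after 72 h. Among these 12 rows, Cd14, Itgam and Mrc1 reached 1 FPKM in no 0 h library and carry the same limit. Endothelial markers were higher in 3, 4 and 10 and lower in 3, 2 and 0 of 11 rows (all tested rows: 25.8%, 28.5% and 37.6% higher and 40.0%, 42.1% and 32.4% lower), and their sum over 10 rows was 93.1 to 96.4 FPKM at 0 h, 103 to 113 after 24 h, 115 to 127 after 48 h and 196 to 201 after 72 h. Over rows that span no other gene (which leaves out the Cd79a row), lymphocyte markers summed to at most 3.24 FPKM in any library and plasmacytoid dendritic markers to at most 1.96 FPKM. In such bulk samples a change in the share of a cell type and a change in RNA per cell cannot be told apart. The part of these cells in the members' changes was not tested.

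The interferons themselves were near the floor of the table. All 20 ligand rows on the list (interferon alpha, beta, gamma, epsilon, kappa and lambda genes) failed to reach 1 FPKM in 2 libraries, 8 were listed at 0 in every library (Ifne, Ifnl3, Ifna4, Ifna12, Ifna9, Ifna1, Ifna5 and Ifna6), and their sum did not exceed 0.755 FPKM in any library. Ifnb1, interferon beta, was at 0 in both 0 h libraries, 0 and 0.0282 FPKM after 24 h, 0 in both 48 h libraries, and 0.1 and 0.0358 FPKM after 72 h. Ifng, interferon gamma, was 0.0455 and 0.0183 FPKM at 0 h, 0 in both libraries after 24 h, 0.0181 and 0.0583 after 48 h, and 0 in both after 72 h. The highest ligand row was Ifnk, interferon kappa, with 0.0497 and 0.0919 FPKM at 0 h, 0.186 and 0.139 after 24 h, 0.322 and 0.275 after 48 h, and 0.252 and 0.154 after 72 h. The Ifnk libraries of each later time lay above both 0 h libraries, but no ligand entered the test, and the depth behind these FPKM values is unknown.

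The 6 tested receptor and kinase rows were well expressed, among them an Il10rb row that also spans Ifnar2. Of these, 3 were higher and 1 lower at 24 h, 3 higher and 1 lower at 48 h, and 6 higher and 0 lower at 72 h. Of all tested rows, 25.8%, 28.5% and 37.6% were higher and 40.0%, 42.1% and 32.4% lower. Ifnlr1, a chain of the interferon lambda receptor, had 0.274 to 0.650 FPKM and was not tested. Ifngr2, a chain of the interferon gamma receptor, had 8.96 and 8.98 FPKM at 0 h, 12.3 and 11.5 after 24 h, 20.4 and 18.8 after 48 h, and 28.0 and 30.4 after 72 h. Its libraries did not overlap between any of the times, and the log2 fold changes against 0 h were 0.37, 1.05 and 1.60 (limma adjusted p = 0.0028, 3.7e-06 and 2.3e-07). Ifngr1, the other chain, had a log2 fold change of 1.40 at 72 h, and Ifnar1, a chain of the type I receptor, one of 0.61. Jak1, a kinase bound to both receptors, was lower at 24 h (-0.55, limma adjusted p = 9.6e-05) and higher at 72 h (0.31, adjusted p = 0.0024).

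Stat2 and Irf9, which act in the type I complex, were higher at all 3 times. Stat2, which carries the activating domain of the complex, had 2.80 and 2.53 FPKM at 0 h, 3.54 and 3.43 after 24 h, 5.05 and 4.63 after 48 h, and 4.76 and 4.71 after 72 h. All later libraries lay above 0 h, with log2 fold changes of 0.29, 0.67 and 0.65 (limma adjusted p = 0.018, 0.00014 and 0.00018). The 24 h call was lost without 0 h library b (0.24, adjusted p = 0.11) or 24 h library a (0.27, adjusted p = 0.058). Irf9, the DNA-binding subunit of the complex, had 8.20 and 7.61 FPKM at 0 h, 12 and 11.6 after 24 h, 12.6 and 11.4 after 48 h, and 16.7 and 18.0 after 72 h in its merged row, a log2 fold change of 0.53, 0.55 and 1.04 (limma adjusted p = 0.00053, 0.00035 and 5.1e-06).

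The interferon regulatory factors divided into rows that rose, rows that dipped and rows with little change. Irf7, which drives production of interferon alpha and is itself induced by interferon, had 13.1 and 9.72 FPKM at 0 h, 18.8 and 17.8 after 24 h, 28.9 and 29.0 after 48 h, and 44.1 and 45.4 after 72 h. Each time lay wholly above the time before it. Its log2 fold change against 0 h was 0.65 ± 0.12, 1.28 ± 0.12 and 1.90 ± 0.12 (SE; limma adjusted p = 0.00096, 1.0e-05 and 7.8e-07), and the steps from 24 to 48 h (0.64) and from 48 to 72 h (0.61) also passed (adjusted p = 0.0044 and 0.0025), the step to 72 h being 0.41 with libraries scaled to the same median. Irf1, an early target of interferon gamma, had 5.5 and 5.16 FPKM at 0 h, 9.87 and 9.51 after 24 h, 9.74 and 8.87 after 48 h, and 11.4 and 11.5 after 72 h. All later libraries lay above 0 h, with log2 fold changes of 0.76, 0.70 and 0.98 (limma adjusted p = 4.7e-05, 5.7e-05 and 6.2e-06).

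Irf8, Irf2 and Irf5 were lower at 24 h. Irf8, a factor of myeloid cells, had 4.97 and 4.51 FPKM at 0 h, 3.33 and 3.07 after 24 h, 4.38 and 4.33 after 48 h, and 7.24 and 6.90 after 72 h. The groups did not overlap, and Irf8 was lower at 24 h (log2 fold change -0.45, limma adjusted p = 0.0017) and higher at 72 h (0.49, adjusted p = 0.00085). Its 48 h value of -0.10 did not pass, and became 0.04 with libraries scaled to the same median and 1.16e-05 with quantile normalisation. Macrophage and neutrophil markers were highest at 72 h as well, as given above, and their part in the Irf8 value was not tested.

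Irf2, which competes with Irf1 for its sites, had log2 fold changes of -0.33 at 24 h and 0.35 at 72 h (limma adjusted p = 0.0074 and 0.0056), and the 24 h value was -0.21 with libraries scaled to the same median and the 72 h value 0.22 with quantile normalisation. Irf5, another myeloid factor, had -0.32 at 24 h and -0.47 at 48 h (limma adjusted p = 0.019 and 0.0021) and 0.13 at 72 h (adjusted p = 0.27). The 24 h call of Irf5 was lost with both other scalings (-0.19 and -0.21) and without 0 h library a (-0.24, adjusted p = 0.13) or 24 h library b (-0.29, adjusted p = 0.072). Irf3, the factor that nucleic acid sensors activate directly, had 17.1 and 17.4 FPKM at 0 h, 18.4 and 15.8 after 24 h, 13.2 and 13.8 after 48 h, and 16.8 and 16.7 after 72 h. The 48 h libraries were the lowest and overlapped no others, with a log2 fold change of -0.33 (limma adjusted p = 0.0066) that lost its call with quantile normalisation (-0.11). The 24 and 72 h values of -0.02 and -0.04 did not pass.

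**Figure D2:**
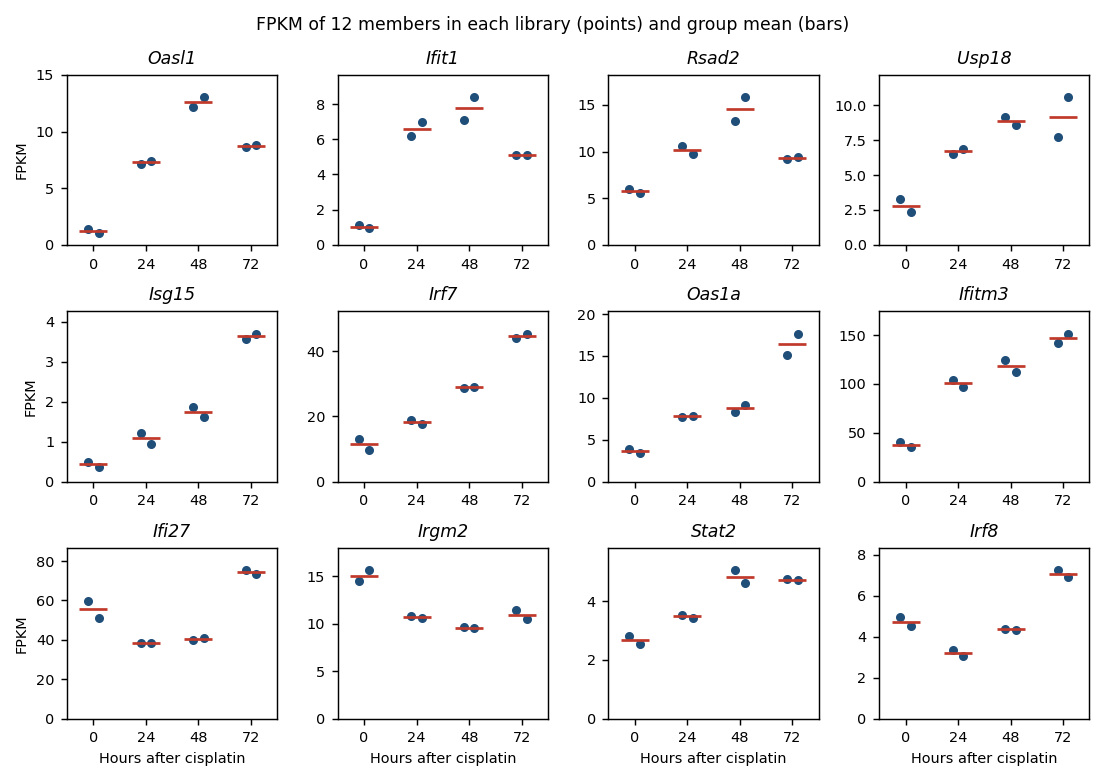
FPKM of 12 members against hours after cisplatin, with 1 blue point per library and a red bar at the mean of the 2 libraries, each panel with its own axis starting at 0. Oasl1, Ifit1 and Rsad2 are highest at 48 h, Isg15, Irf7, Oas1a and Ifitm3 climb to 72 h, Irgm2 lies below 0 h throughout, Stat2 lies above 0 h throughout, and Ifi27 and Irf8 are lowest at 24 h.

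Several RNA- and virus-restricting members were highest at 48 h and lower again at 72 h. Oasl1, an oligoadenylate synthetase-like protein that in mouse restrains Irf7 translation, had 1.45 and 1.10 FPKM at 0 h, 7.16 and 7.41 after 24 h, 12.2 and 13.1 after 48 h, and 8.65 and 8.86 after 72 h. No times overlapped. Its log2 fold change against 0 h was 1.87 ± 0.10, 2.59 ± 0.10 and 2.11 ± 0.10 (SE; limma adjusted p = 8.2e-07, 6.7e-08 and 1.4e-07), the largest of all members at 48 and 72 h. It was 0.72 higher at 48 h than at 24 h and 0.48 lower at 72 h than at 48 h on the log2 scale (limma adjusted p = 0.0010 and 0.0035).

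Ifit1, which binds RNA with incomplete caps, had 1.12 and 0.967 FPKM at 0 h, 6.21 and 7.01 after 24 h, 7.10 and 8.41 after 48 h, and 5.11 and 5.10 after 72 h. The 72 h libraries lay above 0 h and below all those of 24 and 48 h. The log2 fold changes against 0 h were 1.89 ± 0.11, 2.10 ± 0.11 and 1.58 ± 0.11 (SE; limma adjusted p = 1.2e-06, 3.2e-07 and 1.4e-06), and that of 72 h against 48 h was -0.52 (adjusted p = 0.0039). Rsad2, or viperin, an enzyme whose product ends viral RNA synthesis, had 5.98 and 5.53 FPKM at 0 h, 10.6 and 9.69 after 24 h, 13.3 and 15.9 after 48 h, and 9.22 and 9.40 after 72 h. Its 72 h libraries lay below both 48 h libraries (-0.59, limma adjusted p = 0.0014). Its step from 24 to 48 h (0.48, adjusted p = 0.0080) was lost without 48 h library b (0.36, adjusted p = 0.058).

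The Ifit2 row, which also holds Ifit3 and Ifit3b, had 9.95 and 8.39 FPKM at 0 h, 29.7 and 27.6 after 24 h, 11.9 and 32.2 after 48 h, and 23.1 and 25.6 after 72 h. The 48 h libraries stood far apart, and every later library lay above 0 h. Only 24 h passed (log2 fold change 1.55 ± 0.46 SE, limma adjusted p = 0.035), and that call was lost when either 0 h library, either 24 h library or either 72 h library was left out (adjusted p between 0.068 and 0.14).

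Of the 6 tested rows of the Oas family, which here includes Oasl1 and Oasl2, 4, 5 and 6 were higher at 24, 48 and 72 h and none was lower. Of all tested rows, 25.8%, 28.5% and 37.6% were higher and 40.0%, 42.1% and 32.4% lower. Oas1a, in a merged row with Oas1g, had 3.91 and 3.48 FPKM at 0 h, 7.74 and 7.88 after 24 h, 8.34 and 9.14 after 48 h, and 15.1 and 17.7 after 72 h. The 72 h libraries stood well above the rest. The log2 fold changes were 0.91, 1.05 and 1.89 ± 0.10 (SE; limma adjusted p = 4.8e-05, 1.4e-05 and 3.0e-07), and 72 h exceeded 48 h by 0.83 (adjusted p = 0.00025). Oasl2 had log2 fold changes of 1.07, 1.43 and 1.71. Oas1c had 2.38 and 2.39 FPKM at 72 h, against 0.541 and 1.11 FPKM at 48 h (0.91, limma adjusted p = 0.0010), and was not called at 24 or 48 h. The Oas1b calls at 48 and 72 h were lost without 0 h library a (adjusted p = 0.30 and 0.071), when some later libraries were left out and with quantile normalisation (0.25 and 0.20).

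Isg15, a ubiquitin-like protein attached to other proteins, and Usp18, the protease that removes it and blocks the type I receptor, both rose. Isg15 had 0.506 and 0.364 FPKM at 0 h, 1.22 and 0.953 after 24 h, 1.87 and 1.63 after 48 h, and 3.57 and 3.71 after 72 h. Each time lay wholly above the time before it, with log2 fold changes against 0 h of 0.54, 0.94 and 1.69 ± 0.11 (SE; limma adjusted p = 0.0021, 5.9e-05 and 1.2e-06). The Isg15 row lies inside the span of the Agrn row. Usp18 had 3.29 and 2.35 FPKM at 0 h, 6.48 and 6.89 after 24 h, 9.12 and 8.60 after 48 h, and 7.73 and 10.6 after 72 h. The 48 h libraries exceeded those at 24 h, and the 72 h libraries enclosed the 48 h ones. Its log2 fold changes were 1.02, 1.38 and 1.41 ± 0.15 (SE; limma adjusted p = 0.00038, 4.7e-05 and 4.0e-05), and neither step between later times passed. Mx1 and Mx2, dynamin-like GTPases that block viruses, were both higher at 48 and 72 h, by log2 fold changes of 1.02 and 0.65 for Mx2 and 0.47 and 0.90 for Mx1. At 24 h Mx2 had 0.84, which passed, and Mx1 0.27, which did not but passed with libraries scaled to the same median (0.39), and the difference between these genes was not tested. With quantile normalisation the 72 h call of Mx2 (0.30) and the 48 h call of Mx1 (0.22) were lost, and Mx1 had 0.51 at 72 h. The 48 h call of Mx1 was lost without 0 h library b (0.29, limma adjusted p = 0.076), and its row was not tested without either 72 h library.

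Ifitm3, a membrane protein that restricts virus entry, had the highest mean FPKM of all members at 24, 48 and 72 h. It had 40.4 and 35.5 FPKM at 0 h, 104 and 96.5 after 24 h, 124 and 112 after 48 h, and 142 and 152 after 72 h. No times overlapped, and the log2 fold changes were 1.38, 1.61 and 1.93 ± 0.09 (SE; limma adjusted p = 2.1e-06, 4.5e-07 and 1.2e-07). Ifitm6 rose to 3.47 and 2.61 FPKM after 72 h, against 0.492 and 0.204 FPKM at 0 h (log2 fold change 1.58, limma adjusted p = 2.8e-05). Ifitm1 was higher at 24 and 72 h, and its 24 h call (0.50, adjusted p = 0.034) was lost without either 0 h library, without 24 h library b and without either 72 h library. The row of Ifitm5, a bone protein that is not known as an interferon target, also rose (0.50, 0.70 and 1.18). This row runs past the RefSeq gene, so its values may not be those of Ifitm5 alone.

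Among the GTPase families, Gbp2, Gbp3, Gbp7, Irgm1 and Iigp1 were higher at all 3 times. Gbp2 peaked early, with 3.60 and 2.81 FPKM at 0 h, 8.67 and 9.40 after 24 h, 8.16 and 7.43 after 48 h, and 6.13 and 6.32 after 72 h. All later libraries lay above 0 h and the 72 h libraries were the lowest of them, with log2 fold changes of 1.26, 1.07 and 0.79 ± 0.11 (SE; limma adjusted p = 1.2e-05, 2.1e-05 and 0.00016). The 72 h difference from 48 h, -0.28, did not pass (adjusted p = 0.056), but passed with libraries scaled to the same median (-0.49) and with quantile normalisation (-0.52). Irgm1, a regulator of the other immunity-related GTPases, had 30.4 to 36.6 FPKM at the later times, against 24.2 and 22.7 FPKM at 0 h (0.54, 0.40 and 0.42), and the 48 h value was 0.73 with quantile normalisation.

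The Irgm2 row, which also spans Igtp, ran the other way. It had 14.5 and 15.6 FPKM at 0 h, 10.8 and 10.6 after 24 h, 9.64 and 9.5 after 48 h, and 11.4 and 10.4 after 72 h. Every later library lay below both 0 h libraries, with log2 fold changes of -0.45, -0.60 and -0.43 ± 0.08 (SE; limma adjusted p = 0.00090, 0.00013 and 0.0011). With quantile normalisation the 24 h value was -0.30. The Gbp9 row, which spans 4 further Gbp genes, had 3.84 to 5.43 FPKM at the later times, against 6.59 and 4.00 FPKM at 0 h, and its later libraries lay inside the range of 0 h except 1 after 72 h. A row with a suffixed identifier that covers Gbp5, and is not a member, had 1.36 and 1.63 FPKM at 0 h, 1.35 and 1.45 after 24 h, 2.40 and 2.21 after 48 h, and 2.40 and 1.94 after 72 h.

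**Figure D3:**
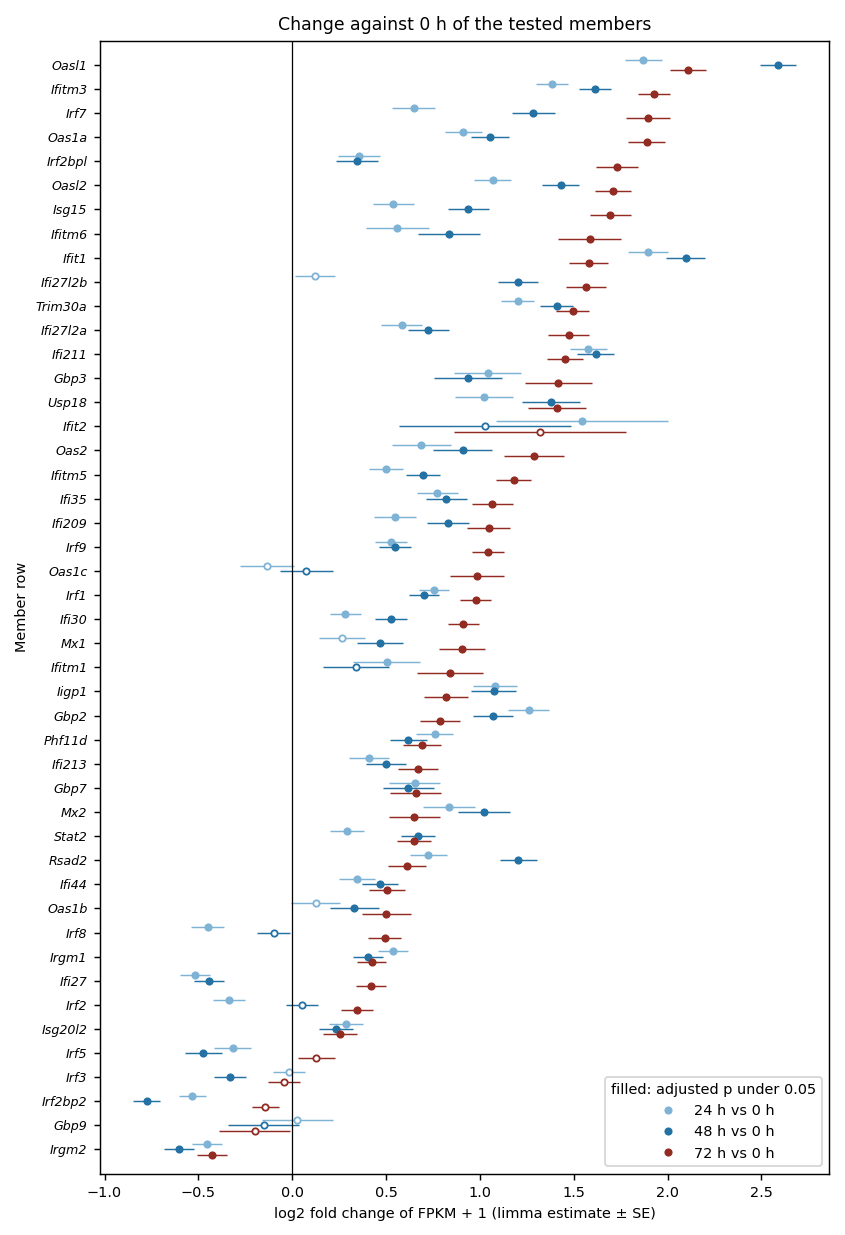
Log2 fold change of FPKM + 1 against 0 h for 46 of the 48 tested members, ordered by the 72 h value with the highest at the top, at 24 h (light blue), 48 h (dark blue) and 72 h (red). Points are limma estimates with bars of 1 SE, and filled points have an adjusted p under 0.05. Oasl1 is the highest at 72 h with 2.11 and Irgm2 the lowest with -0.43.

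The remaining Ifi genes were mixed at 24 h and all 6 tested rows were higher at 72 h. Ifi27, a small hydrophobic protein, had 59.9 and 51.0 FPKM at 0 h, 38.3 and 38.3 after 24 h, 40.1 and 40.7 after 48 h, and 75.3 and 73.4 after 72 h. It lay below 0 h at 24 and 48 h and above it at 72 h, with log2 fold changes of -0.52, -0.44 and 0.42 ± 0.08 (SE; limma adjusted p = 0.00040, 0.00088 and 0.0012). With quantile normalisation the 48 h call was lost (-0.0097), and the other values were -0.22 at 24 h and 0.79 at 72 h. Its row overlaps that of Ifi27l2a on the opposite strand, so reads of the pair may not be separated. Ifi27l2a had the other course at 24 and 48 h, with log2 fold changes of 0.58, 0.73 and 1.47 (limma adjusted p = 0.0013, 0.00030 and 2.9e-06).

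Ifi27l2b appeared from 48 h, with 0.0350 and 0 FPKM at 0 h, 0.147 and 0.0654 after 24 h, 1.30 and 1.39 after 48 h, and 1.80 and 2.23 after 72 h. The change between 24 and 48 h, 1.08 on the log2 scale, was the largest of any member between those times (limma adjusted p = 0.00022). The Ifi27l2b row reached 1 FPKM at 48 and 72 h only, so it entered the test only through the times at which it was high. Ifi30, a lysosomal reductase used in antigen processing, had 116 and 115 FPKM at 72 h, against 59.1 and 62.9 FPKM at 0 h, in its merged row (0.91, limma adjusted p = 1.2e-05). The Trim30a row, named for a ubiquitin ligase that restrains inflammatory signalling, had 13.9 to 18.3 FPKM at the later times, against 5.78 and 5.58 FPKM at 0 h (1.20, 1.41 and 1.49). The Phf11d row had 11.4 to 13.7 FPKM at the later times, against 7.77 and 7.04 FPKM at 0 h (0.76, 0.62 and 0.69).

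The Irf2bp genes, corepressors named for binding Irf2, were taken in by name. Irf2bp2 had 19.1 and 18.7 FPKM at 0 h, 13.2 and 12.4 after 24 h, 10.6 and 10.7 after 48 h, and 17.3 and 16.8 after 72 h. It was lower at 24 h (-0.53) and 48 h (-0.77; limma adjusted p = 0.00018 and 1.3e-05), and its 72 h value of -0.14 did not pass (adjusted p = 0.11) but did with libraries scaled to the same median (-0.21). With quantile normalisation the 24 h value was -0.34. Irf2bpl had 0.551 and 0.466 FPKM at 0 h, 1.11 and 0.768 after 24 h, 0.870 and 0.959 after 48 h, and 4.11 and 3.90 after 72 h. The 72 h libraries stood apart, 1.39 above 48 h on the log2 scale (limma adjusted p = 3.3e-05), the largest step of any member between those times. The Irf2bpl row reached 1 FPKM at 24 and 72 h only, so it entered the test only by being higher later. Isg20l2, a nuclease of ribosome production, had small log2 fold changes (0.29, 0.24 and 0.26), each lost without 0 h library b (limma adjusted p = 0.13, 0.22 and 0.18), and its 72 h call was also lost with both other scalings (0.19 and 0.13).

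Between 24 and 48 h, 9 members were higher and 2 were lower, against 11.2% and 17.2% of all rows. The 9 were Ifi27l2b, Oasl1, Irf7, Rsad2, Isg15, Irf2, Stat2, Oasl2 and Irf8, and the 2 were Irf3 and Irf2bp2, of which Irf2bp2 lost its call with quantile normalisation (-0.20). Only 3 of these 11 calls held when each of the 8 libraries was left out in turn. Between 48 and 72 h, 23 were higher and 4 lower, against 37.2% and 11.3% of all rows, and the median log2 fold change was 0.28 for the members and 0.18 for all rows. Scaling to the same median gave 13 higher and 8 lower, and quantile normalisation 15 higher and 9 lower, and 13 of the 23 kept their call under both. The 4 members lower at 72 h than at 48 h, among them Rsad2, Ifit1 and Oasl1, kept theirs under both.

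Genes that act with the members were counted in the same fit. Of 30 tested rows of other interferon-induced genes, 18 were higher and 3 lower at 24 h, 21 higher and 3 lower at 48 h, and 23 higher and 1 lower at 72 h. Their median log2 fold change at 72 h was 0.72, against 0.07 for all tested rows. Examples at 72 h were Lgals9 (1.75), Bst2 or tetherin (1.26), Xaf1 (1.49) and the Slfn2 row, which spans further Slfn genes (2.26). Of 13 rows for nucleic acid sensing, 5, 7 and 8 were higher and 4, 3 and 2 lower. For both lists, the shares of all tested rows at 24, 48 and 72 h were 25.8%, 28.5% and 37.6% higher and 40.0%, 42.1% and 32.4% lower. Tmem173, which encodes the DNA-sensing adaptor Sting, had 0.999 and 0.690 FPKM at 0 h, 5.06 and 4.55 after 24 h, 4.89 and 4.10 after 48 h, and 6.24 and 6.46 after 72 h. Zbp1, a sensor of Z-form nucleic acid, had 2.97 to 5.06 FPKM at the later times, against 0.956 and 0.962 FPKM at 0 h. Tmem173 and Zbp1 reached 1 FPKM in no 0 h library, so they could pass the filter only by being higher later. The counts of the sensing rows carry that limit. The Ifih1 row, named for the sensor of long double-stranded RNA, was lower at 72 h (-0.95, limma adjusted p = 7.9e-06), and it also spans Dpp4, Gcg and Fap.

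Of 7 tested rows for factors that restrain the signal, 2, 3 and 5 were higher and 2, 1 and 0 lower at 24, 48 and 72 h. Of all tested rows, 25.8%, 28.5% and 37.6% were higher and 40.0%, 42.1% and 32.4% lower at these times. The share of the 7 rows that was higher at 24 h was near that of all tested rows. Socs3, an inhibitor of Jak kinases, had 0.580 and 0.429 FPKM at 0 h, 9.03 and 8.56 after 24 h, 12.3 and 11.6 after 48 h, and 16.3 and 15.7 after 72 h. Every time lay above the one before it (2.70, 3.11 and 3.5 against 0 h on the log2 scale). Socs3 and Socs1, which is also on this list, reached 1 FPKM in no 0 h library. They could pass the filter only by being higher later, and the counts of this list carry that limit. Of 11 antigen presentation rows, 3, 3 and 7 were higher and 5, 5 and 4 lower. The shares higher at 24 and 48 h were near the 25.8% and 28.5% of all tested rows. The shares lower at 24, 48 and 72 h were near the 40.0%, 42.1% and 32.4% of all tested rows. Tap1, a peptide transporter for class I, rose to 16.2 and 15.8 FPKM after 72 h, against 4.50 and 4.53 FPKM at 0 h (1.62, limma adjusted p = 1.6e-07). Psmb8, a subunit of the immunoproteasome, had a log2 fold change of 1.18. H2-Aa and H2-Eb1, class II chains, were lower at all 3 times, with log2 fold changes of -0.72 and -0.69 at 72 h (limma adjusted p = 4.3e-05 and 0.00011).

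**Figure D4:**
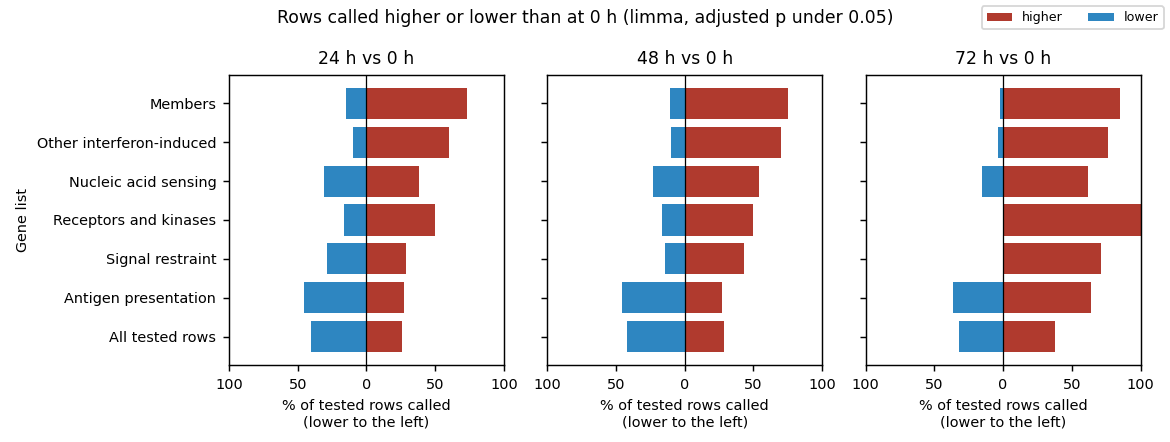
Share of tested rows called higher (red, to the right) or lower (blue, to the left) than at 0 h by limma, in the members, in 5 lists of genes that act with them and in all tested rows, at 24, 48 and 72 h. Members have the largest share called higher at 24 and 48 h. The antigen presentation rows have the largest share called lower at all 3 times, near that of all tested rows.

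The circRNA of the Ifi200 cluster was also followed, a circle being an RNA closed by joining a downstream exon end to an upstream exon start. Its lower end lies in Ifi211 (chr1:173896339-173913087, RefSeq GRCm38.p6) and its upper end in Ifi205 (chr1:174011998-174031755), and Ifi203, Ifi202b and the pseudogene Gm18445 lie between, over 112183 bases. Only 22 of the 2163 circRNAs had a longer span, and the median span was 7809 bases. It had 0 and 1 back-splice counts at 0 h, 4 and 9 after 24 h, 19 and 10 after 48 h, and 12 and 5 after 72 h, out of 13603 to 21024 circRNA counts per library. Every later library lay above both 0 h libraries. Per 10000 circRNA counts, 0 h library a had 0, where a count of 0 allows up to 2.21, and 0 h library b had 0.550 (95% exact interval 0.0139 to 3.07). On the same scale the rates were 2.35 and 5.19 after 24 h, 9.04 and 5.87 after 48 h, and 7.35 and 3.24 after 72 h. Intervals and this limit cover counting error only.

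In edgeR's quasi-likelihood test with Benjamini-Hochberg adjustment, 48 h passed (log2 fold change 4.23, adjusted p = 0.0030), as did 72 h (3.66, adjusted p = 0.048), and 24 h did not (3.24, adjusted p = 0.13). Over all 1574 circRNAs tested, 0.826% were higher at 48 h, 0.381% at 72 h and 1.08% at 24 h. With 0 and 1 counts at 0 h these fitted values depend on the prior count. The 48 h call was lost without 0 h library a (adjusted p = 0.135), 0 h library b (adjusted p = 0.0675) or 48 h library a (adjusted p = 0.118), and the 72 h call without either 0 h library, either 48 h library or 72 h library a. The Ifi211 gene row, inside which the circle lies, had 5.49 and 4.62 FPKM at 0 h, 17.1 and 17.0 after 24 h, 17.0 and 18.1 after 48 h, and 14.5 and 16.6 after 72 h (1.58, 1.62 and 1.45 ± 0.10 SE; limma adjusted p = 2.0e-06, 9.2e-07 and 1.5e-06). The Ifi200 genes are paralogs whose transcribed sequences were not compared, and the placement of junction reads among them was not tested.

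**Figure D5:**
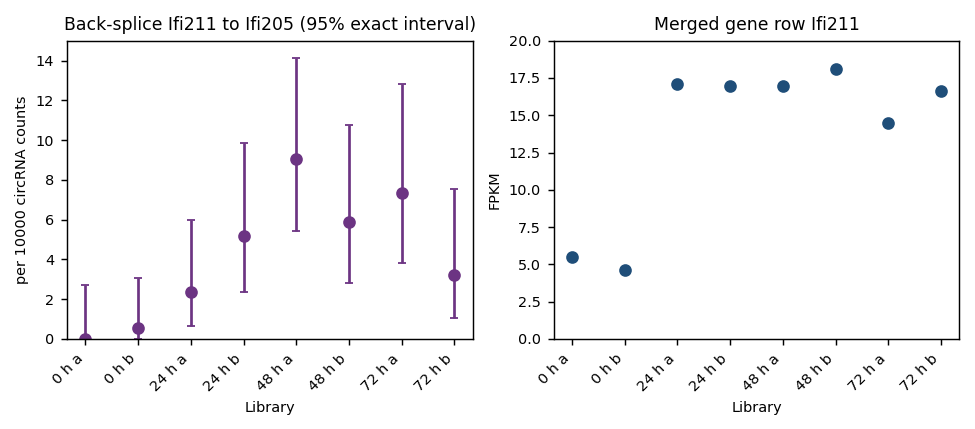
Left, counts of the back-splice that joins Ifi211 and Ifi205 per 10000 circRNA counts in each library, with bars for the 95% exact interval. Right, FPKM of the merged Ifi211 gene row in the same libraries. The 0 h libraries are the lowest in both panels, and the intervals of neighbouring later libraries overlap. The interval of 0 h library b also overlaps that of every later library except 48 h a and 72 h a.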

How the data were processed

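Gene values were FPKM for each row and library, as deposited by the authors. For circRNAs the authors deposited raw whole-number counts of each back-splice, and 8 further columns of that table were not used. The submitters' processing notes name Bowtie 0.12.2, TopHat2, Cufflinks and mm10 without roles, and no source used here gives the caller of circRNAs. Libraries were prepared with a kit that the labels call one for small RNA. Columns carry the letters a and b and not the labels' replicate numbers, so columns were placed in a time group and no further.

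Symbols were matched through Ensembl identifiers (19742 of 21874 rows), and rows were set against RefSeq spans of GRCm38.p6. A row was said to span another gene where it covered at least 50% of it. Of 91 symbols that fit the naming rule, 27 had no row of their own, 17 of which lie in a member's row. Rows that reached 1 FPKM in 2 or more libraries were tested with limma 3.58.1 (R 4.3.3; trend, robust) on log2(FPKM + 1), in 1 fit of 8 libraries, so fold changes understate those of low rows. The depth of FPKM libraries is unknown. circRNAs above 0 in at least 4 libraries were tested with edgeR 4.0.16 (TMM, robust quasi-likelihood), and DESeq2 1.42.0 was an alternative. Tests were 2-sided with Benjamini-Hochberg adjustment over all features of a contrast and a threshold of 0.05, and both procedures were tested on simulated data.

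The members, the other gene lists and the tests were chosen with earlier results of these data known. Members with their own account are, per contrast with 0 h, up to 8 rises and 6 falls with non-overlapping libraries, for successive times up to 5 each way, the highest row of each family, and Stat2, Irf1, Irf3, Irf7, Irf8, Irf9, Isg15, Ifit1 and Usp18. Other lists give up to 4 rows by smallest p at 72 h, and all ligands by count. A few further members (Mx1, Mx2, Ifitm1, Ifitm5, Gbp9, Oas1b, Ifi27l2a) and the Ifnb1, Ifng, Ifnk and Gbp5 rows were chosen after their values were seen. Single values of a few members are not reported here, though counts over the members include them.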

Additional observations from a re-analysis of the deposited data

How the results depend on the processing

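Most counts of members moved by less than 1.5 times under the other settings. Requiring 5 FPKM tested 33 members and gave 27 called and 23 higher at 48 h and 27 higher at 72 h. Scaling to the same median gave 13 higher and 8 lower between 48 and 72 h and 2 lower at 72 h. Quantile normalisation gave 15 higher and 9 lower between 48 and 72 h, 3 lower at 48 h, and 1 lower between 24 and 48 h, as did no filter on low rows. Fitting the compared groups alone gave 0 lower between 24 and 48 h (2 in the fit of all libraries), and rows spanning no other gene gave 3 lower at 48 h and 0 at 72 h. Signs turned for Irf3 at 24 h (0.11 with equal medians, 0.15 with quantile normalisation) and 72 h (0.034, quantile) and for Irf8 at 48 h (0.040 and 1.16e-05). The causes were not tested. Leaving out 1 library gave 5 to 10 called, 4 to 9 higher and 0 to 2 lower between 24 and 48 h, 15 to 24 higher between 48 and 72 h, 1 to 2 lower at 72 h, and -0.12 to 0.090 for Irf3 at 24 h. For the circRNA it gave log2 fold changes of 3.56 to 6.67 at 48 h and 2.97 to 6.14 at 72 h. Its 72 h call was lost with no filter (3.66, adjusted p = 0.069), and DESeq2 gave 4.48 and 3.91 with no adjusted p. No paired analysis was possible because the columns carry letters and not the labels' replicate numbers, so nothing pairs libraries across times. FPKM depth is unknown, and low rows rest on few fragments.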

Other observations

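Several genes of the families have no row of their own outside the members' rows, and the rows that cover them are led by other genes. The Olfr56 row, which covers the GTPase gene Ifi47, had 4.34 and 4.30 FPKM at 0 h, 5.41 and 6.12 after 24 h, 5.51 and 5.04 after 48 h, and 6.60 and 6.65 after 72 h. The Ctsd row, which covers Ifitm10, had 795 and 826 FPKM at 72 h, against 340 and 353 FPKM at 0 h. The Slc16a12 row, which covers Ifit1bl1 and Ifit1bl2, had 33.8 to 54.6 FPKM at the later times, against 158 and 168 FPKM at 0 h.

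Of 9 other circRNAs inside member rows, the most counted was the circle chr19:34587061-34607763 in the Ifit2 row (an authors' position pair, build mm10). It had 4 and 9 counts at 0 h, 11 and 15 after 24 h, 2 and 2 after 48 h, and 10 and 3 after 72 h. It was lowest after 48 h and did not pass the test at that time (edgeR log2 fold change -1.95, adjusted p = 0.43).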
